A study of Arabidopsis thaliana with 18 samples.

Results

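The genes of the flavonoid pathway examined here were 10 of the 32852 features listed in all 18 libraries, each found by its locus identifier: the flavonoid enzymes CHS (AT5G13930), CHI (AT3G55120), F3H (AT3G51240), F3'H (AT5G07990), FLS1 (AT5G08640), DFR (AT5G42800) and LDOX (AT4G22880), and the MYB transcription factors MYB12 (AT2G47460), MYB111 (AT5G49330) and PAP1 (AT1G56650, also called MYB75). They were measured by poly(A) RNA sequencing in wild-type Arabidopsis thaliana root apices of the ecotypes Ler (Landsberg erecta) and Col (Columbia). Seedlings of all groups grew for 7 days on medium with 500 µM phosphate, and apices of about 0.5 cm were taken at 0 h, or 1 h or 2 h after transfer to medium without phosphate, with 3 libraries in each of the 6 groups. For the 0 h libraries the treatment label and the protocol text disagree on whether seedlings were moved to fresh medium, and no 1 h or 2 h library with phosphate kept was analysed here, so the absence of phosphate, the transfer and the time of day cannot be told apart.

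Flavonoids are made from phenylalanine through the general phenylpropanoid pathway. Chalcone synthase (CHS) and chalcone isomerase (CHI) build the flavonoid skeleton, F3H and F3'H hydroxylate it, and flavonol synthase (FLS1) turns the product into flavonols such as quercetin and kaempferol. DFR and LDOX lead into anthocyanins and proanthocyanidins instead. MYB12 and MYB111 activate the early genes up to FLS1, with MYB12 known mainly from roots, whereas PAP1 activates the anthocyanin branch. Many of these genes also respond to light through the factor HY5, and anthocyanins are known to build up in shoots during long phosphate starvation.

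The genes lie on chromosomes 1 to 5 of TAIR10.1. MYB12 is on the plus strand of chromosome 2, at 19476326 to 19479597, with 3 exons. CHS is on the plus strand of chromosome 5, at 4488476 to 4490264, with 2 exons. FLS1 is also on the plus strand of chromosome 5, at 2803833 to 2805606, with 3 exons, and DFR is on its minus strand, at 17164093 to 17166032, with 6 exons. The 250 bases upstream of the annotated start of these 4 genes are shown because MYB12 was the member that changed, CHS and FLS1 are the first and the flavonol-forming enzyme, and DFR was almost silent. Capitals mark each ACGT, the core bound by HY5-type factors, on either strand, and the sequences are those of RefSeq, TAIR10.1.
MYB12, chr2:19476076-19476325, plus strand: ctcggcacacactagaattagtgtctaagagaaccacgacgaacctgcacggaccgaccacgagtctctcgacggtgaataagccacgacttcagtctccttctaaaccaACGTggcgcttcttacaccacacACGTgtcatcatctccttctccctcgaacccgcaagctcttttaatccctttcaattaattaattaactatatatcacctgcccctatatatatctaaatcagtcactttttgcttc
CHS, chr5:4488226-4488475, plus strand: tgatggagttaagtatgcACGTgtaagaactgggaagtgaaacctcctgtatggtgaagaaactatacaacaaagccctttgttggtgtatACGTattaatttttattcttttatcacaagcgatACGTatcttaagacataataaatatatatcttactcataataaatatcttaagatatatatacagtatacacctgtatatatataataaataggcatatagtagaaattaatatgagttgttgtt
FLS1, chr5:2803583-2803832, plus strand: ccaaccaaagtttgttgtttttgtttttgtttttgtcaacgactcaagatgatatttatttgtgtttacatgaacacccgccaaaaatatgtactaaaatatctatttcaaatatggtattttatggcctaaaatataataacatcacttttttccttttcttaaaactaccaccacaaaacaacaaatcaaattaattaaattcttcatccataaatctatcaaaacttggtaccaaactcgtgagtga
DFR, chr5:17166033-17166282, minus strand: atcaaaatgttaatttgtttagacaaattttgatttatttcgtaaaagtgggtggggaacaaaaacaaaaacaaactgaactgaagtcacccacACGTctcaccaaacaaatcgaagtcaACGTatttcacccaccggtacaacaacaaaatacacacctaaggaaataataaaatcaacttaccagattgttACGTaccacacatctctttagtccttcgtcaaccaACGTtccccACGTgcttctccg

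ACGT occurred 2 times in the MYB12 window, 3 times in that of CHS and 5 times in that of DFR, and did not occur in that of FLS1. F3H held 5 and MYB111 held 1, and the other members held none. The F3H window overlapped with 1 exon of another gene. ACGT was found in 44.1% of 27443 promoter windows of the same length. The G-box CACGTG, which contains ACGT, was present once each upstream of MYB12, CHS, F3H and DFR, and in 6.49% of all windows. P1BS (GNATATNC, the element bound by the phosphate-starvation regulator PHR1) was found once upstream of F3'H and 3 times upstream of MYB111, and in 5.46% of all windows. The AC elements bound by flavonol MYB factors (ACCTACC, with ACCAACC as one variant and ACCTAAC as another, either strand) were not in any of the 10 windows and were in 6.12% of all windows. The E-box CANNTG, which overlaps the G-box, was in the windows of CHS, CHI, F3H, F3'H, DFR, MYB12 and MYB111, and in 55.3% of all windows. These matches describe letters in a window and say nothing of binding.

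Library totals ran from 23451068 to 29277597 counts, so that 3 counts, the limit that a count of 0 allows, corresponded to 0.102 to 0.131 on the counts-per-million (CPM) scale, for counting error only. All 12 root tip marker genes, among them PLT1, SCR and PIN2, were detected in every library. Their summed level ran from 658.5 to 758.6 CPM in Ler and from 780.3 to 995.4 CPM in Col, so the ecotypes did not overlap. The part of this separation in the differences between Ler and Col given below was not tested. The 4 seed genes summed to at most 0.484 CPM, with CRA1 and CRU3 at 0 in all 18 libraries. In such bulk samples fewer cells of a type and less RNA per cell cannot be told apart.

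Expressed per kilobase of transcript, the members fell into an expressed and a nearly silent set. CHS stood highest, with a mean of 660.4 ± 188.7 RPKM (CPM divided by the transcript length in kilobases; SD, n = 18 libraries). F3H followed with 225.4 ± 138.0 RPKM, FLS1 with 209.7 ± 98.5 RPKM and CHI with 121.4 ± 59.3 RPKM. The means of F3H and FLS1 differed by less than 1 SD, whereas CHI lay below both of them in every library. MYB12 averaged 28.9 ± 16.6 RPKM and F3'H 21.7 ± 9.99 RPKM, with overlapping ranges. All 6 passed the filter on low counts.

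**Figure D1:**
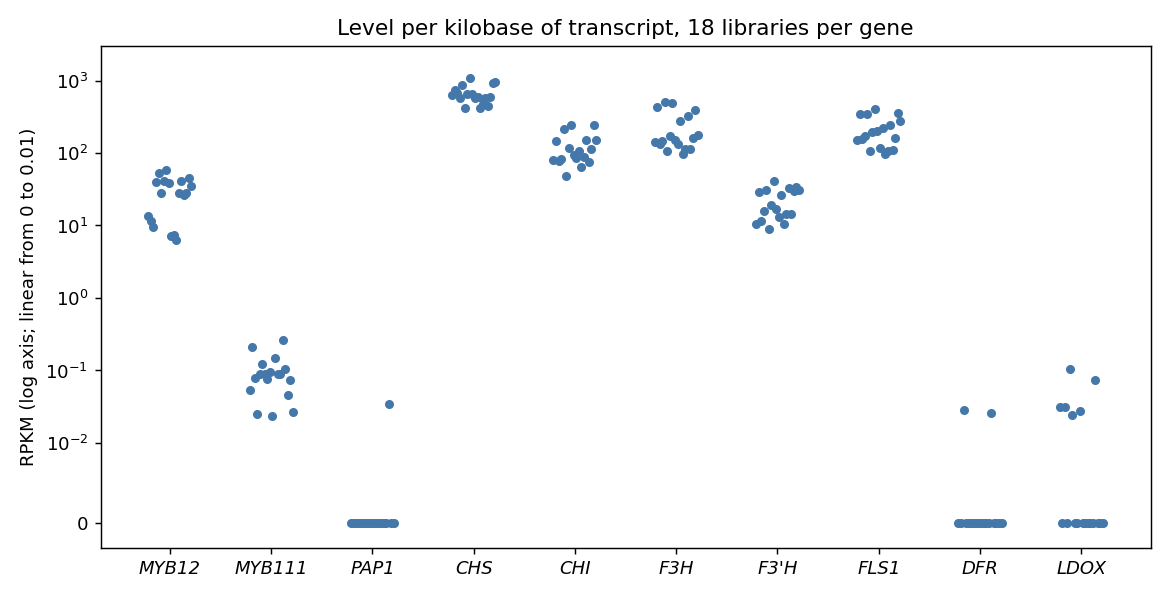
Level of the 10 genes per kilobase of transcript in 18 libraries each; every point is a library, and the vertical axis is logarithmic above 0.01 RPKM and linear below it. CHS ranges from 420.8 to 1076 RPKM, and DFR, LDOX and PAP1 are at 0 in most libraries.

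The other 4 members stayed below the filter and were not tested. DFR, the entry enzyme of the anthocyanin branch, had 2 counts in all, 1 in Ler 1 h and 1 in Col 0 h, and 16 of 18 libraries were at 0. LDOX, which acts after DFR, had 11 counts in all and 12 libraries at 0, with its highest count, 4, in a Col 1 h library. One other locus matched 373 bases (26.6%) of the LDOX transcript at 95% identity or more, so its few reads are uncertain. PAP1 had 1 count, in a Ler 2 h library. MYB111 was seen in every library but with only 1 to 11 counts, a mean of 0.095 ± 0.062 RPKM (SD, n = 18). These levels were at or near what a count of 0 allows, so falls or small changes in these 4 genes were not detectable at this depth. No library of any group had more than 11 counts for any of them.

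MYB12 rose within 1 h of transfer in both ecotypes and stayed higher at 2 h. In Ler the 3 libraries had 11.2, 11.9 and 10.1 CPM at 0 h, 44.6, 65.3 and 41.2 CPM at 1 h and 44.8, 72.5 and 56.2 CPM at 2 h. In Col they had 21.4, 18.4 and 14.9 CPM at 0 h, 62.5, 82.6 and 44.1 CPM at 1 h and 65.5, 93.4 and 61.6 CPM at 2 h. In both ecotypes every 1 h and 2 h library lay above every 0 h library. By edgeR's quasi-likelihood test with Benjamini-Hochberg adjustment over 20599 features, the log2 change in Ler was 2.18 (SE 0.26, adjusted p = 0.000118) at 1 h and 2.38 (SE 0.26, adjusted p = 0.000156) at 2 h. In Col it was 1.79 (SE 0.25, adjusted p = 0.000411) at 1 h and 2.01 (SE 0.26, adjusted p = 0.0017) at 2 h.

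Averaged over ecotypes, MYB12 rose by 1.99 (edgeR adjusted p = 2.59e-06) at 1 h and by 2.20 (edgeR adjusted p = 7.03e-06) at 2 h on the log2 scale. From 1 h to 2 h the change was 0.21 (SE 0.17, edgeR adjusted p = 0.622), which did not pass. Without a block, MYB12 was the only 1 of the 6 tested members called in the contrasts with 0 h, against a background of 6.82% (1 h) and 2.8% (2 h) of features called in Ler, 11.1% (1 h) and 6.39% (2 h) in Col, and 19.8% and 8.63% for the averages at 1 h and 2 h. It kept its call in every fit that left out 1 library, and without all libraries numbered 2 its log2 changes were 1.98 and 2.23 in Ler and 1.54 and 1.80 in Col at 1 h and 2 h.

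**Figure D2:**
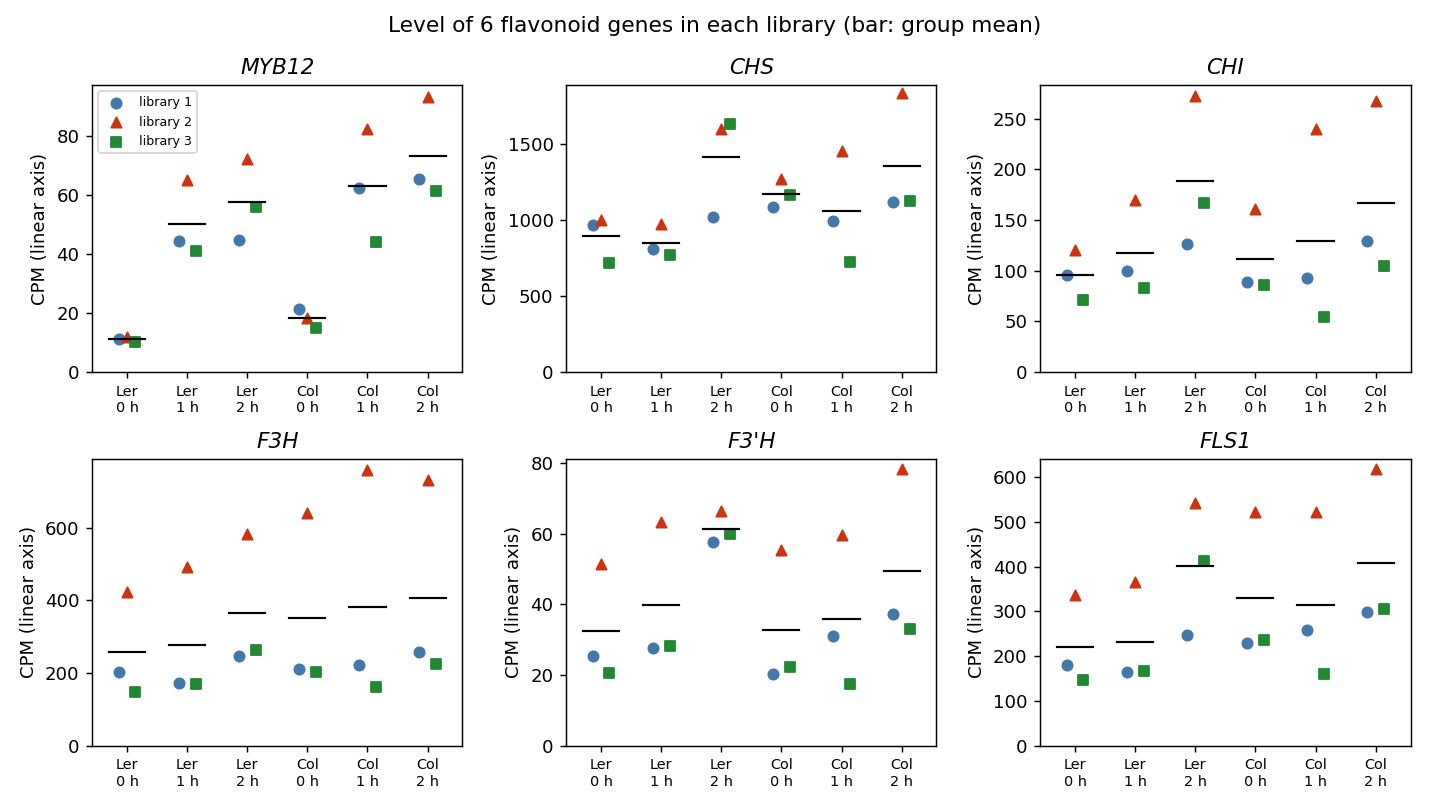
CPM of the 6 tested members in each library, by ecotype and time, with a bar for the mean of 3 libraries and a marker for the library number. MYB12 is at 10.1 to 21.4 CPM in the 0 h groups and at 41.2 to 93.4 CPM later, while library 2 is the highest of its group for CHI, F3H, F3'H and FLS1 in all 6 groups.

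Without a block, the enzymes did not pass edgeR's test in any contrast with 0 h. CHS, the first committed enzyme, had 968, 999 and 717 CPM in Ler at 0 h, 812, 970 and 770 CPM at 1 h and 1019, 1599 and 1628 CPM at 2 h. Every Ler 2 h library exceeded every Ler 0 h library, with a log2 change of 0.66 (SE 0.25, edgeR adjusted p = 0.203). In Col, CHS had 1088, 1268 and 1162 CPM at 0 h, 990, 1456 and 723 CPM at 1 h and 1116, 1832 and 1126 CPM at 2 h, and the groups overlapped. Its log2 change in Col was -0.15 (SE 0.25) at 1 h and 0.21 (SE 0.25) at 2 h.

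CHI, which closes the flavanone ring, had 95.3, 120 and 71.4 CPM in Ler at 0 h, 99.2, 170 and 83.2 CPM at 1 h and 127, 272 and 167 CPM at 2 h. In Col it had 88.5, 161 and 86.3 CPM at 0 h, 93.0, 240 and 54.0 CPM at 1 h and 129, 267 and 104 CPM at 2 h. The Ler 2 h libraries lay above those of Ler 0 h, and the Col groups overlapped. F3H, the 3-hydroxylase, had 203, 423 and 148 CPM in Ler at 0 h, 174, 492 and 170 CPM at 1 h and 246, 582 and 264 CPM at 2 h. In Col it had 213, 640 and 202 CPM at 0 h, 222, 760 and 161 CPM at 1 h and 259, 733 and 226 CPM at 2 h. One library of each group, the one numbered 2, carried most of the F3H spread.

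F3'H, which adds the hydroxyl group that distinguishes quercetin from kaempferol, had 25.5, 51.3 and 20.4 CPM in Ler at 0 h, 27.6, 63.4 and 28.2 CPM at 1 h and 57.5, 66.3 and 59.9 CPM at 2 h. In Col it had 20.3, 55.4 and 22.3 CPM at 0 h, 30.9, 59.6 and 17.4 CPM at 1 h and 37.1, 78.1 and 33.0 CPM at 2 h. The Ler 2 h libraries all exceeded those of Ler 0 h. FLS1 had 180, 336 and 147 CPM in Ler at 0 h, 164, 366 and 168 CPM at 1 h and 248, 543 and 412 CPM at 2 h. In Col it had 229, 522 and 236 CPM at 0 h, 259, 522 and 161 CPM at 1 h and 299, 618 and 306 CPM at 2 h, with overlapping groups.

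At 2 h in Ler the log2 changes of the other 4 enzymes were 0.98 (SE 0.50) for CHI, 0.50 (SE 0.68) for F3H, 0.92 (SE 0.51) for F3'H and 0.86 (SE 0.50) for FLS1. Their edgeR adjusted p ran from 0.369 to 0.799. With library number as a block all 5 enzymes passed there, from F3H at 0.53 (SE 0.15, edgeR adjusted p = 0.0434) to F3'H at 1.08 (SE 0.22, edgeR adjusted p = 0.00716). The lowest correlation of deviations between same-numbered libraries was 0.032 in that contrast, under the limit of 0.1 for pairing. In Col at 2 h the changes of the same 4 enzymes without a block were 0.58, 0.21, 0.60 and 0.31. At 1 h the 5 enzymes' changes lay between -0.07 and 0.30 in Ler and between -0.15 and 0.20 in Col. With all libraries numbered 2 left out, a setting chosen after seeing the data, F3'H passed in Ler at 2 h with a log2 change of 1.34 (edgeR adjusted p = 0.0269).

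Between 1 h and 2 h, averaged over ecotypes, edgeR called 0 of the 6 members, against 5.74% of all features. One member had an unadjusted p under 0.05, and DESeq2 called 1, CHS. Libraries with the same number deviated together in these groups, and once library number was a block in the fit edgeR called 4 members, against 12.5% of all features. The blocked log2 changes were 0.55 (SE 0.13, adjusted p = 0.0126) for CHS, 0.59 (SE 0.15, adjusted p = 0.0215) for CHI, 0.64 (SE 0.15, adjusted p = 0.0126) for F3'H and 0.64 (SE 0.13, adjusted p = 0.00498) for FLS1. F3H, at 0.34 (SE 0.11, adjusted p = 0.055), and MYB12, at 0.22 (SE 0.11, adjusted p = 0.221), did not pass in that fit.

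**Figure D3:**
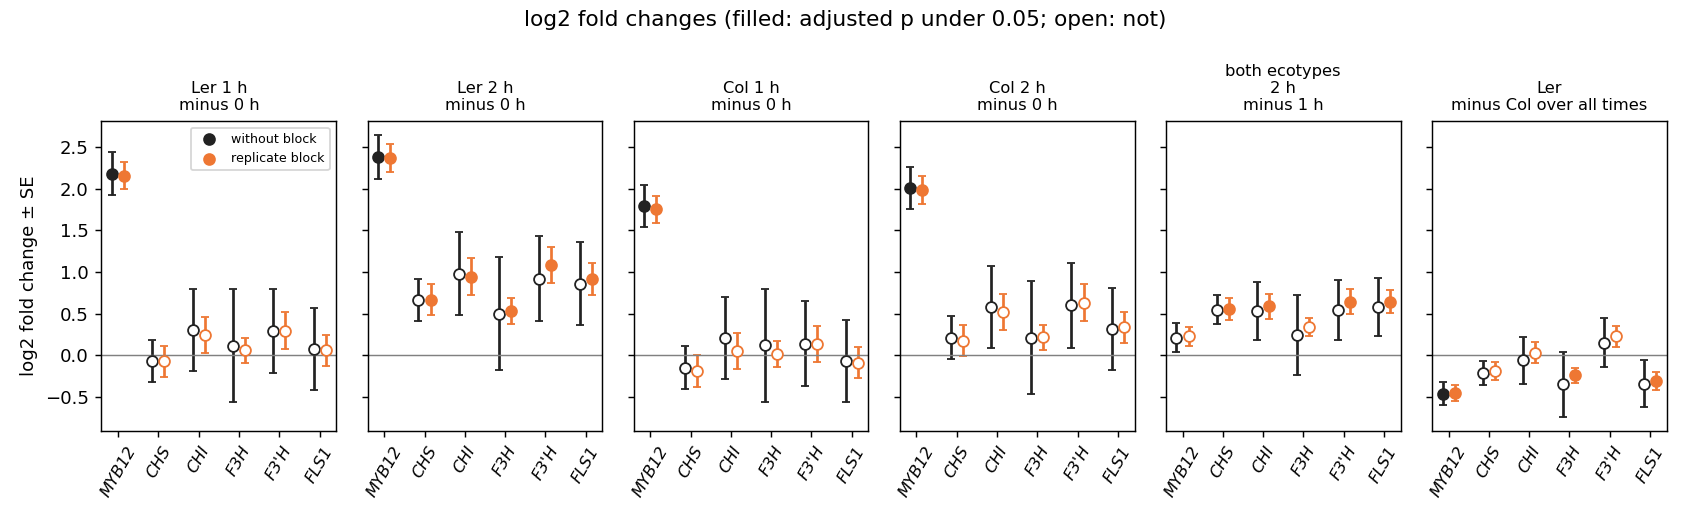
Log2 fold change with its SE for the 6 tested members in 6 contrasts, without (black) and with (orange) the replicate number as a block; filled points have an adjusted p under 0.05. MYB12 is at 1.79 to 2.38 in the 4 contrasts with 0 h without the block, and the SE of F3H is 0.68 in them without the block and 0.15 with it. With the block all 6 points are filled in Ler at 2 h, a contrast in which same-numbered libraries did not all deviate together.

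Averaged over times, MYB12 was lower in Ler than in Col by a log2 difference of -0.46 (SE 0.14, edgeR adjusted p = 0.0199), the only 1 of the 6 members called, against 32.7% of all features. It kept this call when 1 library was left out, with an edgeR adjusted p of up to 0.0497. At 0 h MYB12 in Ler was 0.61 times its level in Col (log2 difference -0.72, SE 0.25, edgeR adjusted p = 0.0623), with all Ler libraries below all Col libraries, and with the block it passed (adjusted p = 0.00474). At 0 h edgeR called 0 of the 6 members against 17.7% of features, with 1 at an unadjusted p under 0.05 and 1 called by DESeq2. With the block it called 2, MYB12 and FLS1 (-0.55, SE 0.19, adjusted p = 0.0383), against 30.1% of features. Over all times the block added F3H (-0.24, SE 0.09, adjusted p = 0.0354) and FLS1 (-0.31, SE 0.11, adjusted p = 0.0319), against 43.4% of features.

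At 1 h and at 2 h edgeR called 0 of the 6 members between the ecotypes, with 0 at an unadjusted p under 0.05 and 0 by DESeq2, against 14.0% and 15.8% of features. The change after transfer was not found to differ between the ecotypes for any member. The interaction called 0 members at 1 h, against 0.00485% of features, and 0 at 2 h, against 0% of features, with 0 members at an unadjusted p under 0.05 and 0 by DESeq2 at both times. For MYB12 the difference between Ler and Col was 0.39 (SE 0.35) at 1 h and 0.37 (SE 0.35) at 2 h on the log2 scale. The sources used here do not give the sequence against which Ler reads were counted, and its part in the ecotype differences was not tested.

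The libraries numbered 2 stood apart from the others in most of these genes. Averaged over the 6 groups, library 2 exceeded the mean of the other 2 libraries 2.90-fold for F3H (rank 22 of 20599 features), 2.12-fold for FLS1 and 2.05-fold for CHI, and F3'H by 1.07 on the log2 scale, each highest in 6 of 6 groups. CHS and MYB12 were both 1.34-fold higher and highest in 5 of 6. Of the 56 other pathway genes past the filter, 31 lay above the other libraries and 25 below, with a median log2 difference of 0.05, beside 0.01 over all features. Library 2 was the highest in all 6 groups for 9 of the 56 (16.1%), against 1.56% of all features, and the lowest in all 6 for 4 (7.14%), against 3.69%. No test was run on these counts.

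The 11 decoration genes had 5 of those 9, among them the flavonol glycosyltransferase UGT78D1 (4.11-fold) and the rhamnosyltransferase UGT89C1 (2.00-fold). The ligase gene 4CL3 (2.27-fold), the transport gene GSTF12 (2.08-fold) and the chalcone isomerase-like CHIL (1.99-fold) were also among the 9. Of the 5 further flavonoid enzymes 3 lay below the other libraries, with FLS5 at 0.685 times their level. The ligase 4CL1 was at 0.856 times and PAL2 at 1.04 times. UGT78D3 had 3 to 28 counts in the libraries numbered 2 and at most 3 counts in each of the others, at or near the limit that a count of 0 allows, so no fold is given for it. MYBL2, a MYB repressor of flavonoid synthesis, had 1 to 7 counts (0.0367 to 0.281 CPM) in the libraries numbered 2, against 10 to 178 counts (0.338 to 6.92 CPM) in the other 12. The groups of MYBL2 libraries did not overlap, but those numbered 2 lay near the same limit, so the size of the difference is uncertain.

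Among all features the rise in the libraries numbered 2 was largest for LHY, a morning gene of the circadian clock, at 6.55-fold, and its partner CCA1 ranked 4 at 4.58-fold; both were named after their values were seen. LHY had 194 CPM in library 2 against 37.0 and 39.5 CPM in Ler at 0 h, and 99.1 CPM against 13.2 and 16.9 CPM in Col at 0 h. The labels do not say what a library number stands for, and the part of harvest time in these differences was not tested.

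**Figure D4:**
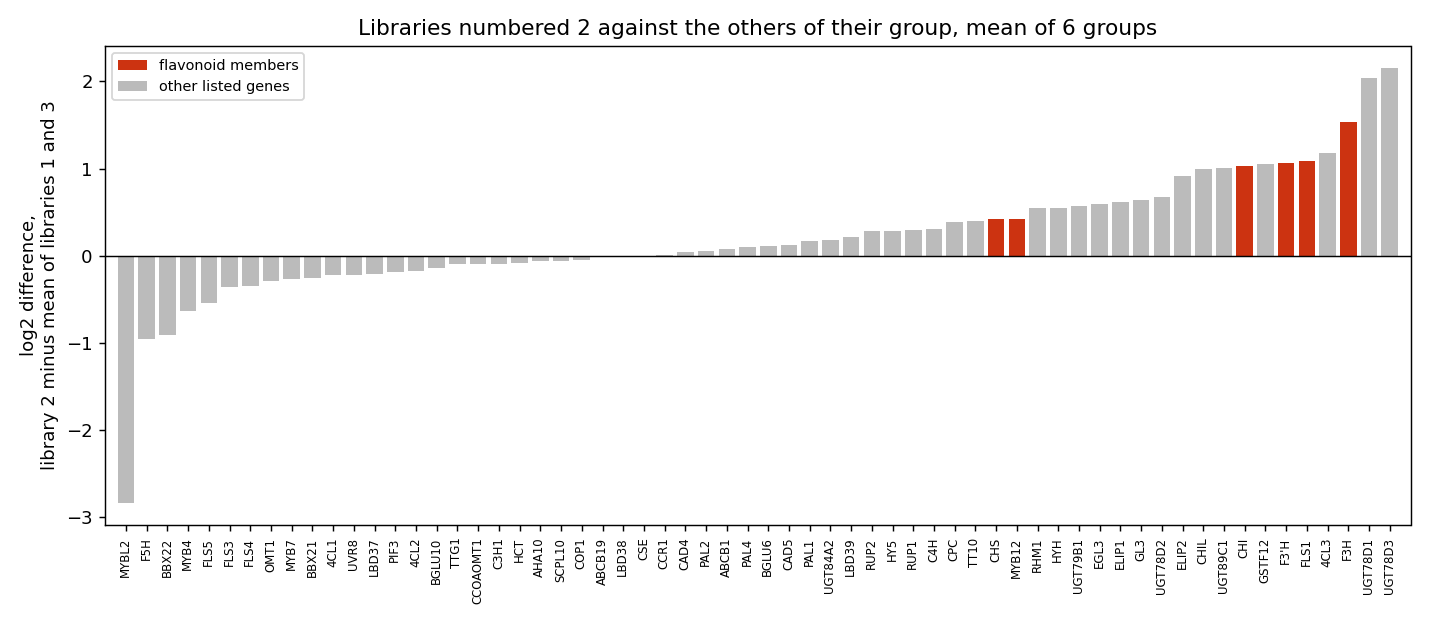
Mean over 6 groups of the log2 difference between library 2 and the mean of libraries 1 and 3, for the tested members (red) and the other pathway genes past the filter (grey). The members all lie above 0, from 0.42 for CHS to 1.54 for F3H, and MYBL2 is the lowest bar. The bars of MYBL2 and UGT78D3 rest on libraries with few counts.

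Across the 18 libraries FLS1 was the feature whose log2 CPM was most like that of CHS (Pearson r = 0.895, rank 1 of 20598). The 5 features outside the members nearest to CHS were PAL1 (0.885), RAD52-2 (0.88), C4H (0.867), AT5G63380 (0.861) and KAT5 (0.858). CHI ranked 7 (0.854), F3H 50 (0.742), F3'H 60 (0.728) and MYB12 860 (0.429). These are descriptions over libraries that share the differences by number.

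Calls for the pathway lists are from the fit without a block, unless the block is named. Of the 8 general phenylpropanoid genes, 7 passed the filter. In Ler at 2 h 3 of them rose, against 2.19% of features. PAL2, a phenylalanine ammonia-lyase, rose by 0.98 (SE 0.20, edgeR adjusted p = 0.0136), PAL1 by 0.89 (SE 0.22, edgeR adjusted p = 0.0383) and the hydroxylase C4H by 0.74 (SE 0.19, edgeR adjusted p = 0.0495), and the list's median was 0.74, beside -0.03 over all features. In Col at 1 h 2 fell, against 5.73% of features, namely 4CL1 at -1.19 (SE 0.19, edgeR adjusted p = 0.000944) and PAL4 at -1.05 (SE 0.31, edgeR adjusted p = 0.0419). The ligase 4CL1 also fell in Ler at 1 h (-0.73, edgeR adjusted p = 0.0298; 2.55% of features fell) and in Col at 2 h (-0.70, edgeR adjusted p = 0.0402; 3.46% of features fell). Averaged over times Ler exceeded Col for PAL4 (1.01) and 4CL1 (0.30), with 16.5% of features higher and 16.1% lower. The 4CL1 call was lost in 11 of 18 fits that left out 1 library. The list's median in that contrast was -0.24, and with the block 2 genes were higher in Ler and 3 lower, against 43.4% of features called. At 0 h PAL1 and PAL2 were called lower in Ler, 2 of the 7, against 17.7% of features. Each of these calls was lost in 4 of 6 such fits.

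Of the 16 genes that decorate flavonoids, 11 passed the filter, and 3 rose in Col at 1 h, against 5.35% of features. UGT78D2, which adds glucose to flavonols and anthocyanins, had 119, 207 and 84.6 CPM in Col at 1 h, against 47.1, 73.0 and 61.5 CPM at 0 h, a log2 change of 1.18 (SE 0.34, edgeR adjusted p = 0.0363). It rose by 1.26 (edgeR adjusted p = 0.0405) in Col at 2 h and by 1.63 (edgeR adjusted p = 0.0186) in Ler at 2 h. In Ler at 1 h UGT78D2 was not called, but its 99.4, 155 and 92.5 CPM lay above the 52.4, 58.1 and 50.8 CPM at 0 h. UGT84A2, a sinapate glucosyltransferase, rose by 1.11 and 1.07 in Col at 1 h and 2 h and by 1.45 (SE 0.26, edgeR adjusted p = 0.00668) in Ler at 2 h. BGLU6, a flavonol glucosyltransferase of the glycoside hydrolase family, rose in Col at 1 h (0.85, edgeR adjusted p = 0.0495) and its relative BGLU10 in Ler at 2 h (0.91, edgeR adjusted p = 0.0305), whereas SCPL10 fell in Col at 2 h (-1.04, edgeR adjusted p = 0.0252). In Col at 2 h 2 of the 11 rose and 1 fell, against 2.93% and 3.46% of features. In Ler at 1 h 0 of the 11 were called, when 4.26% of features rose. With the block 3 rose there, when 2987 of 20599 features were called in either direction. In Ler at 2 h 3 rose and 0 fell, against 2.19% and 0.607% of features.

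The 11 genes of light and UV-B signalling all passed the filter. In Ler 4 rose at 1 h and 5 at 2 h, against 4.26% and 2.19% of features. In Col 3 rose at 1 h and 2 at 2 h, against 5.35% and 2.93% of features, and none fell. Without a block COP1, UVR8, RUP2, BBX21, BBX22 and PIF3 were not called in any of these 4 contrasts. With the block 5 of the list rose in Ler at 1 h and 7 at 2 h, some of these genes among the 7. In Col 4 rose at 1 h and 5 at 2 h with the block. In that fit 2987 and 1825 of 20599 features were called in Ler, and 4462 and 4550 in Col. The Ler contrast at 2 h did not pass the pairing check. ELIP1, whose protein protects chloroplasts under strong light, had 22.5, 28.0 and 18.3 CPM in Ler at 0 h, 181, 230 and 176 CPM at 1 h and 166, 270 and 178 CPM at 2 h. In Col it had 11.1, 12.9 and 15.9 CPM at 0 h, 147, 234 and 107 CPM at 1 h and 104, 263 and 97.0 CPM at 2 h, so that no later library overlapped with 0 h. Its log2 changes were 3.09 and 3.16 in Ler and 3.61 and 3.54 in Col at 1 h and 2 h, with edgeR adjusted p of at most 0.000932. ELIP2 changed by 3.20 and 2.84 in Ler and by 3.38 and 3.05 in Col and passed in all 4 contrasts. HY5 rose in Ler by 0.69 at 1 h and 0.73 at 2 h, and in Col by 0.65 at 1 h, and its homologue HYH by 1.21 and 1.39 in Ler. The HYH calls in Ler were lost in 3 and 4 of 6 fits that left out 1 library. HYH was not called in Col, where it had 31.6, 35.0 and 32.5 CPM at 0 h. Every later Col library lay above these, with 58.5, 74.7 and 37.7 CPM at 1 h and 47.4, 70.1 and 42.6 CPM at 2 h. At 0 h HYH was called lower in Ler than in Col, against 17.7% of features called. The HY5 call in Ler at 2 h was lost in all 6 fits that left out 1 library. RUP1, a repressor of the UV-B receptor, rose by 0.88 in Ler at 2 h. ELIP1 and ELIP2 thus passed in the same 4 contrasts as MYB12, and the part of light signalling in its change was not tested. The 6 photosynthetic marker genes were detected in every library and were not tested for a change, and RCA made up the largest part of their sum (median 37.2 CPM). Their summed level was 65.3 to 147.6, 46.7 to 77.1 and 37.0 to 73.9 CPM in Ler and of 41.7 to 84.2, 24.9 to 55.2 and 20.5 to 36.3 CPM in Col at 0 h, 1 h and 2 h, and these ranges overlapped except between 2 h and 0 h in Col.

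**Figure D5:**
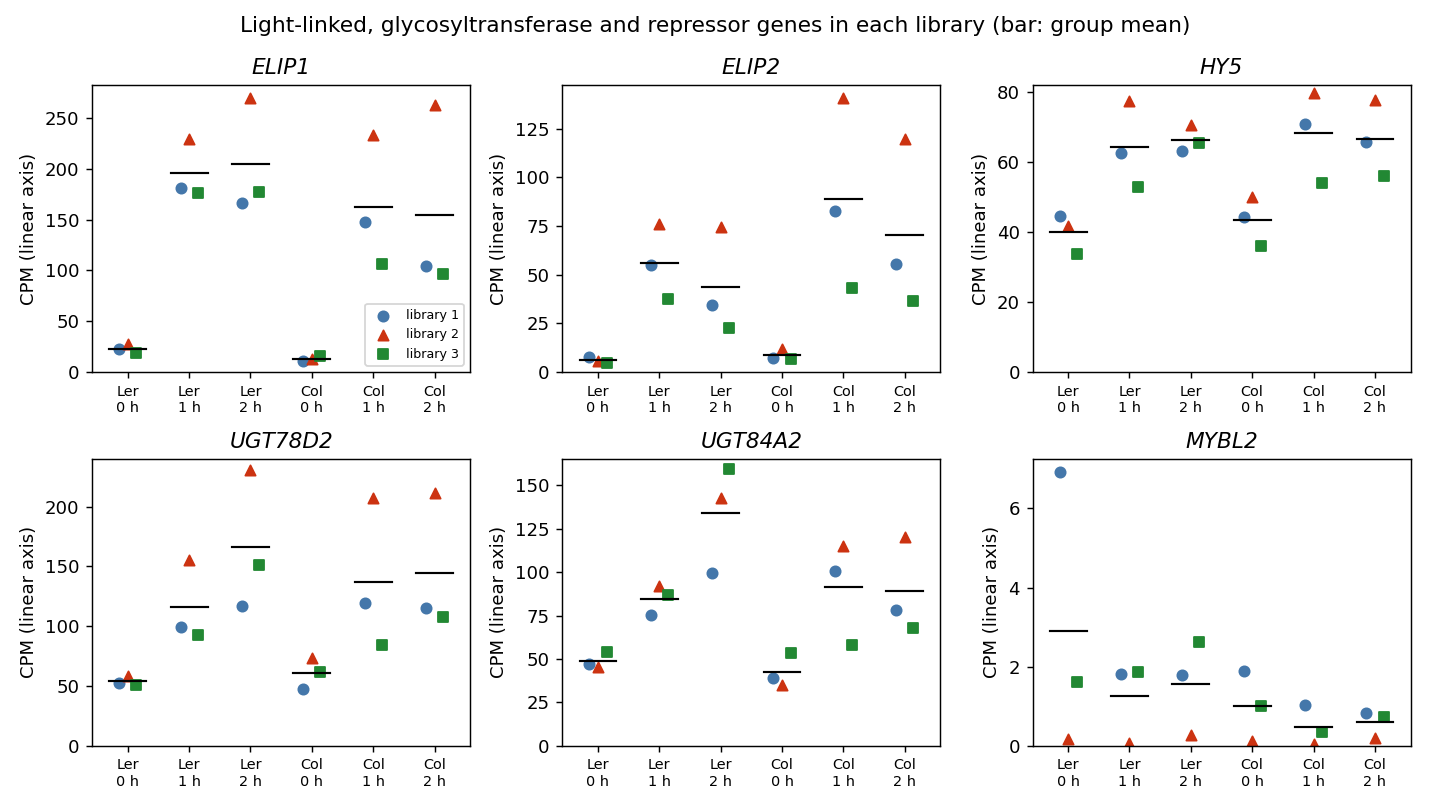
CPM in each library of the light-linked genes ELIP1, ELIP2 and HY5, the glucosyltransferase genes UGT78D2 and UGT84A2, and the repressor gene MYBL2, by ecotype and time, with a bar for the mean of 3 libraries. ELIP1 is at 11.1 to 28.0 CPM at 0 h and at 97.0 to 270 CPM later, and the libraries numbered 2 are lowest for MYBL2 in all 6 groups.

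Of the 8 further flavonoid enzymes 5 passed the filter. FLS5 was higher in Ler than in Col over all times (0.79, SE 0.19, edgeR adjusted p = 0.00389). TT10, a laccase known from the seed coat, was at 0 in 7 of the 9 Ler libraries and at most 0.0776 CPM in the others, against 1.31 to 4.73 CPM in Col. Of 5 transport genes 4 passed the filter, and GSTF12 was higher in Ler over all times (1.49, SE 0.31, edgeR adjusted p = 0.00149), as were AHA10 (0.39) and ABCB1 (0.30). ABCB1, an auxin exporter, also rose at 1 h by 0.47 in Ler and by 0.32 in Col. Of 19 further regulators 10 passed the filter, and LBD39, a repressor of anthocyanin genes, fell in Col at 1 h (-1.01, SE 0.22, edgeR adjusted p = 0.00687). Without a block LBD39 was the only 1 of the 10 called in that contrast, in which 5.73% of features fell. With the block 1 of the 10 rose there and 4 fell, when 4462 of 20599 features were called in either direction. Averaged over ecotypes at 1 h without a block, CPC rose and MYB4, MYB7 and LBD39 fell, against 19.8% of features called. The CPC call was lost in 7 of 12 fits that left out 1 library, and that of MYB4 in 2 of 12. MYB7 (-0.74) and LBD38 (-0.38) were lower in Ler than in Col over all times, 2 of the 10, with 16.1% of features lower. The LBD38 call was lost in 11 of 18 fits that left out 1 library. Among the 8 genes of the neighbouring monolignol branch, CAD5 rose in Ler by 1.37 at 1 h and 1.53 at 2 h, and CSE fell in Col by 0.75 at 1 h and by 0.53 at 2 h. The CSE call at 2 h was lost in all 6 fits that left out 1 library, and the CAD5 calls in 2 and 4 of 6. In Ler 1 of the 8 rose at each time, against 4.26% and 2.19% of features. In Col 2 fell at 1 h and 1 at 2 h, against 5.73% and 3.46% of features. At 0 h 4 of the 8 were lower in Ler than in Col, against 17.7% of features called.

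Several of these calls were close to the threshold. Of the 121 called values of pathway genes over all contrasts, 57 lost the threshold when 1 library was left out, and 57 lost it without all libraries numbered 2. Those of ELIP1 in the 4 contrasts with 0 h, and that of 4CL1 in Col at 1 h, were kept in every such fit.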

How the data were processed

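The authors deposited unnormalized counts of reads for each feature, 1 table for each library; libraries were poly(A)-selected, paired-end and stranded, per the labels' protocols. TopHat2, Bowtie2 and the TAIR10 build are named, per the submitters' processing notes; the counting tool and annotation are not given in the sources used here. Counts of the 32852 features common to all libraries entered edgeR 4.0.16 (with limma 3.58.1 under R 4.3.3): filterByExpr (minimum 10 counts, total 15) kept 20599 features, TMM scaling, 1 mean per group over 18 libraries, quasi-likelihood tests of 13 contrasts, Benjamini-Hochberg adjustment, threshold 0.05. CPM use TMM-scaled sizes, and RPKM the longest RefSeq spliced transcript. The fit was tested on simulated data. Similar loci were sought with blastn 2.17.0. The design text calls the libraries biological replicates, but no source of material is named per library, so p-values measure the spread between libraries.

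Same-numbered libraries deviated together (correlation of deviations over 0.1 for every pair) in all contrasts except Ler 2 h minus 0 h, both ecotypes 2 h minus 0 h and the interaction at 2 h; the pairing comes from the numbers in the labels and from this check. Named genes are the 10 members, the 5 features most like CHS, and called genes of the lists. The plan was to name up to 4 called genes per list and contrast, but the text gives a selection of called genes and leaves others unnamed. Further genes are named for their difference in the libraries numbered 2 or as results flagged for a closer look. The members and lists were chosen with earlier results of these data known. Alternatives were RLE size factors, DESeq2 1.42.0, no filter, the replicate block, a mean level of 1 CPM or more, a fit to the contrasted libraries alone, leaving out each library, and all libraries numbered 2 left out.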

Additional observations from a re-analysis of the deposited data

Results flagged for a closer look

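For 4CL2, a 4-coumarate ligase gene, every Ler 2 h library lay above every Ler 0 h library, and every Col 2 h library below every Col 0 h library. It had 193, 187 and 226 CPM in Ler at 2 h, against 178, 129 and 137 CPM at 0 h, and 182, 190 and 158 CPM in Col at 2 h, against 242, 203 and 231 CPM at 0 h. Neither change passed edgeR's test: the log2 change was 0.45 in Ler (adjusted p = 0.314) and -0.35 in Col (adjusted p = 0.301). The difference between the Ler and Col changes, 0.80 (edgeR adjusted p = 0.234), did not pass either. The libraries of C3H1, a hydroxylase gene of the monolignol branch, were separated in the same way. Its log2 change was 0.53 in Ler (edgeR adjusted p = 0.136) and -0.28 in Col (edgeR adjusted p = 0.338), and the difference was 0.81 (edgeR adjusted p = 0.227), so none of the 3 passed.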

How the results depend on the processing

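MYB12 passed in the same 7 contrasts under every alternative that gave a value, and none of its 7 called values changed sign. Of the 71 member values that were not called, 41 changed sign in at least 1 alternative, so no direction is drawn from them. With the replicate block edgeR called 6 members in Ler at 2 h and 6 for both ecotypes at 2 h, where the numbers did not pass the pairing check (lowest correlation 0.032), 4 for both ecotypes between 2 h and 1 h, 2 for Ler minus Col at 0 h and 3 over all times; it changed no other count of members. DESeq2 called 1 member between 2 h and 1 h and 1 for Ler minus Col at 0 h, and a fit of only the libraries contrasted called 1 there. Without all libraries numbered 2, 2 members were called in Ler at 2 h, 2 for both ecotypes at 2 h, 1 between 2 h and 1 h (F3'H) and 1 for Ler minus Col at 0 h. Leaving out 1 library gave 0 to 1 members between 2 h and 1 h, 1 without Col 1 h library 2. The block changed the count of called features in 12 of 13 contrasts by over 1.5 times, from 1825 in Ler at 2 h to 6202 for Ler minus Col at 0 h among the larger ones, and the interaction at 2 h to 79. At 2 h the interaction called 0 features by edgeR, with 3621 at an unadjusted p under 0.05 and 140 by DESeq2. The contrast over all times has no fit of only the libraries contrasted. With RLE size factors the values that changed sign were -0.005 for FLS1, both ecotypes 1 h minus 0 h and 0.004 for F3H, interaction at 1 h. With DESeq2 the values that changed sign were -0.005 for FLS1, both ecotypes 1 h minus 0 h and 0.004 for F3H, interaction at 1 h. With a mean of at least 1 CPM the values that changed sign were -0.002 for FLS1, both ecotypes 1 h minus 0 h and 0.009 for F3'H, Ler minus Col at 0 h. With the replicate block the values that changed sign were -0.019 for FLS1, both ecotypes 1 h minus 0 h, 0.019 for F3'H, Ler minus Col at 0 h, 0.015 for CHI, Ler minus Col at 1 h, 0.03 for FLS1, Ler minus Col at 2 h, 0.027 for CHI, Ler minus Col over all times and 0.041 for F3H, interaction at 1 h. With only the libraries contrasted the values that changed sign were -0.003 for FLS1, both ecotypes 1 h minus 0 h and 0.006 for F3'H, Ler minus Col at 0 h. With all libraries numbered 2 left out, chosen after seeing the data, the values that changed sign were -0.27 for CHI, Col 1 h minus 0 h, -0.13 for F3H, Col 1 h minus 0 h, -0.009 for CHS, Col 2 h minus 0 h, -0.06 for F3H, Ler 1 h minus 0 h, -0.006 for FLS1, Ler 1 h minus 0 h, -0.082 for CHI, both ecotypes 1 h minus 0 h, -0.10 for F3H, both ecotypes 1 h minus 0 h, -0.085 for FLS1, both ecotypes 1 h minus 0 h, 0.11 for F3'H, Ler minus Col at 0 h, 0.30 for CHI, Ler minus Col at 1 h, 0.064 for F3H, Ler minus Col at 2 h, 0.12 for FLS1, Ler minus Col at 2 h, 0.18 for CHI, Ler minus Col over all times and 0.07 for F3H, interaction at 1 h. Leaving out 1 library at a time changed the sign of the following uncalled values, given as lowest to highest. For CHI the log2 changes ran over -0.17 to 0.43 (both ecotypes 1 h minus 0 h), -0.63 to 0.57 (Col 1 h minus 0 h), -0.28 to 0.93 (interaction at 1 h), -0.077 to 0.49 (Ler 1 h minus 0 h), -0.44 to 0.14 (Ler minus Col at 0 h), -0.50 to 0.69 (Ler minus Col at 1 h), -0.18 to 0.71 (Ler minus Col at 2 h), -0.18 to 0.21 (Ler minus Col over all times). For CHS the log2 changes ran over -0.48 to 0.061 (Col 1 h minus 0 h), -0.074 to 0.33 (Col 2 h minus 0 h), -0.13 to 0.40 (interaction at 1 h), -0.21 to 0.013 (Ler 1 h minus 0 h), -0.52 to 0.001 (Ler minus Col at 1 h), -0.057 to 0.35 (Ler minus Col at 2 h). For F3'H the log2 changes ran over -0.086 to 0.51 (both ecotypes 1 h minus 0 h), -0.46 to 0.75 (Col 1 h minus 0 h), -0.47 to 0.75 (interaction at 1 h), -0.29 to 0.83 (interaction at 2 h), -0.23 to 0.79 (Ler 1 h minus 0 h), -0.52 to 0.61 (Ler minus Col at 0 h), -0.36 to 0.73 (Ler minus Col at 1 h), -0.021 to 0.36 (Ler minus Col over all times). For F3H the log2 changes ran over -0.40 to 0.48 (both ecotypes 1 h minus 0 h), -0.024 to 0.73 (both ecotypes 2 h minus 0 h), -0.13 to 0.75 (both ecotypes 2 h minus 1 h), -0.90 to 0.87 (Col 1 h minus 0 h), -0.54 to 0.96 (Col 2 h minus 0 h), -0.77 to 1.01 (interaction at 1 h), -0.47 to 1.03 (interaction at 2 h), -0.59 to 0.67 (Ler 1 h minus 0 h), -0.012 to 1.06 (Ler 2 h minus 0 h), -1.01 to 0.32 (Ler minus Col at 0 h), -1.15 to 0.55 (Ler minus Col at 1 h), -0.67 to 0.60 (Ler minus Col at 2 h). For FLS1 the log2 changes ran over -0.30 to 0.24 (both ecotypes 1 h minus 0 h), -0.67 to 0.43 (Col 1 h minus 0 h), -0.13 to 0.80 (Col 2 h minus 0 h), -0.36 to 0.74 (interaction at 1 h), -0.42 to 0.51 (Ler 1 h minus 0 h), -0.92 to 0.16 (Ler minus Col at 1 h), -0.30 to 0.42 (Ler minus Col at 2 h). The cause of these changes was not tested.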
